A study of Mus musculus with 20 samples.

Results

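The transcripts described here are 10 genes of NAD metabolism in mouse gastrocnemius, a calf muscle: Nmrk2, Nmrk1, Nampt, Nmnat1, Nmnat3, Naprt, Nadk2, Nnt, Sirt1 and Sirt3. They were selected on their gene symbol from an expression table of 31618 entries, in which they fill 11 entries because Nnt has 2. Nmrk2 was chosen by its measured level, for its rise after tetrathiomolybdate (TM) over controls, so its values in TM and control muscle are given as a description with no test. The other genes were chosen for their place in the pathway. The 20 libraries, 5 in each of 4 groups, came from male C57BL/6N mice. The groups were controls (Control), TM for 28 days, N-acetylcysteine (NAC) for 28 days, and TM together with NAC for 28 days (TM+NAC). TM is a copper chelator and NAC a thiol antioxidant, and the series sets out to relate the effect of TM on muscle to reactive oxygen species. The labels give no dose, age or route, and the titles of the controls name no vehicle and no number of days. The labels do not tie a library to an animal, so the spread behind each p-value may be partly technical. All groups share the strain, sex and tissue.

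NAD carries electrons in glycolysis, fat oxidation and respiration, and it is consumed by sirtuins and poly-ADP-ribose polymerases, which release nicotinamide. Muscle rebuilds most of its NAD from that nicotinamide: Nampt, the rate-limiting enzyme of the route, makes nicotinamide mononucleotide, and the Nmnat enzymes turn the mononucleotide into NAD. Nicotinamide riboside enters by a shortcut, through phosphorylation by the kinases Nmrk1, found in most tissues, and Nmrk2, found mainly in skeletal muscle and heart. Nmrk2 is also known as muscle integrin-binding protein, a partner of the laminin receptor integrin α7β1, and its transcript is known to rise in stressed or failing heart muscle.

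Nmrk2 lies on chr10:81198170-81202051 on the minus strand (GRCm38) and has 1 annotated transcript. Nmrk1 lies on chr19:18631950-18652194 on the plus strand and has 5 annotated transcripts. Their promoters are shown because the kinases do the same reaction and yet their transcripts stood far apart in level. Each sequence is the 250 bases before the gene's RefSeq start (GRCm38.p6), chr10:81202038-81202287 for Nmrk2 and chr19:18631766-18632015 for Nmrk1, read 5′ to 3′ on the strand of the gene. The RefSeq starts lie inside the gene extents given above, so each window runs partly into its extent. Capitals mark CANNTG, the E-box bound by myogenic factors among others, and TATAAA, the core of a TATA box. Both strands were searched, and the capitals of the motifs do not overlap.
Nmrk2: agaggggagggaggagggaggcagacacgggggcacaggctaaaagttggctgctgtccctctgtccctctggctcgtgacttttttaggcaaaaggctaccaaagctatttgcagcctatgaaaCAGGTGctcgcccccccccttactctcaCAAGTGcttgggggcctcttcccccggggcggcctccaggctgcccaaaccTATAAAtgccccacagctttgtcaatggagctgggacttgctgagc
Nmrk1: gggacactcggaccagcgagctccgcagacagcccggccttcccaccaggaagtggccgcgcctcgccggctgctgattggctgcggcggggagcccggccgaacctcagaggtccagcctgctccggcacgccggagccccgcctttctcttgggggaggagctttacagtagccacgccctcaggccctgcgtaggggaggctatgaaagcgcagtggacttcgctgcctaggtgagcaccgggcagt
The Nmrk2 window held 2 CANNTG and 1 TATAAA, whose first base lay 46 bases before the RefSeq start, and 58.8% of the window's bases were G or C. The Nmrk1 window held 0 of either motif, and 69.2% of its bases were G or C. Of 32851 mouse promoter windows of the same length, 66.2% held at least 1 CANNTG and 12.4% at least 1 TATAAA. Of the 10 genes, 7 were matched in the promoter table.

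Each library held 54.7 to 90.7 M counts (M for mega), with a median of 63.3 M. Levels are counts per M counts (CPM) after scaling, or the deposited FPKM, which is divided by transcript length and library depth without that scaling. FPKM is used wherever genes are compared with each other. Group differences can differ between these units: Nmnat3 averaged 16.2 CPM in controls and 15.5 in TM+NAC, but 2.63 and 2.72 FPKM. The test took in entries whose mean FPKM reached 1, 9696 in all, and 9 of the 10 genes passed this filter. The markers of muscle fibres made up 12.3 to 15.3% of counts in every library. Their summed level ran from 133333 to 156590 CPM in controls, 133070 to 158186 in TM, 133172 to 163995 in NAC and 117419 to 145584 in TM+NAC. All 10 fibre markers were detected in every library. Some libraries stood apart. Snap25, a synaptic protein of neurons, was at 0.67 to 2.24 CPM in controls, 0.85 in TM 1 (libraries are named by group and number) and 8.64 to 9.76 in the other TM libraries. It was at 0.22 CPM in NAC 4, 12.7 to 14.7 in the other NAC libraries and 11.3 to 16.7 in TM+NAC. The neuron list of 18 genes summed to 388 to 483 CPM in controls, 441 to 515 in TM, 369 to 580 in NAC and 433 to 484 in TM+NAC, most of it from Camk2a, a kinase subunit at 327 to 470 CPM over all libraries. The other 17 genes summed to 11.8 to 19.3 CPM in controls, 17.1 in TM 1, 74.0 to 89.2 in the other TM libraries, 16.4 in NAC 4, 115 to 131 in the other NAC libraries and 112 ± 16.4 (SD, n = 5) in TM+NAC. Of the 5 tested, 0 passed in TM against control, 3 rose in NAC against control (Kif5a, Snhg11 and Syp) and these and Snap25 rose in TM+NAC against control, with log2 folds of 4.32 ± 0.67 for Kif5a and 4.57 ± 0.72 for Snhg11 (adjusted p = 0.00302 for each, edgeR's quasi-likelihood test). Without TM 1 and NAC 4, 4 passed in each of these comparisons. Of the 5 liver markers Ttr alone was tested, a thyroid hormone carrier that the choroid plexus also makes. Its level was 0 to 0.181 CPM in controls, 0 to 4.02 after TM, 0 to 5.05 after NAC and 16.2 to 20.5 after both agents. Ttr passed in NAC and in TM+NAC against control (adjusted p = 0.0228 and 0.000896, edgeR's quasi-likelihood test). The other 4, albumin among them, summed to at most 5.87 CPM in TM+NAC and to at most 2.82 in controls. NAC 4 was also the deepest library and had the highest share of mitochondrial transcripts, 20.3% of its counts against 13.1 to 18.9% elsewhere. The part of these differences in the results below was not tested, and many of the folds that leaving out TM 1 or NAC 4 moved are given both ways.

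Nmrk2 had a high level in all 5 TM libraries and a level near that of controls after NAC alone. In controls it stood at 71.8, 57.4, 41.8, 46.0 and 74.0 CPM. After TM it stood at 116, 170.3, 178, 109.6 and 171 CPM. Every TM library lay above every library of the other groups. After NAC alone the values were 44.1, 37.0, 97.4, 40.3 and 70.9 CPM. NAC 3 held the highest value outside TM, 2 of the other NAC libraries lay inside the control range and 2 lay below it. After TM+NAC the values were 70.9, 91.3, 72.0, 91.0 and 74.5 CPM, so these libraries overlapped the upper controls and lay below every TM library. In the deposited FPKM every TM+NAC library lay above every control, so that overlap was not seen in FPKM. Why the units differ here was not tested. The share of all entries that did so in FPKM was not computed. Each value rested on 2050 to 11058 counts, so the spread between libraries, not the number of counts, set the error.

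**Figure D1:**
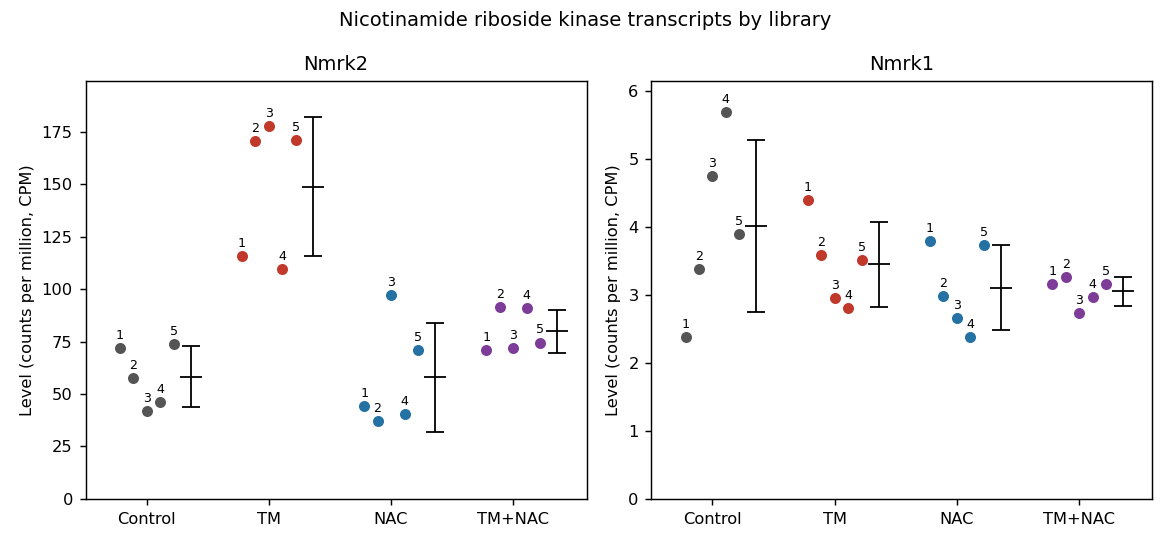
Level of Nmrk2 (left) and Nmrk1 (right) in CPM in each of the 20 libraries, numbered within each group, with the group mean ± SD (n = 5) drawn beside the points; the axes differ in scale. For Nmrk2 the 5 TM libraries sit between 109.6 and 178 CPM, above the other 15, and for Nmrk1 all groups overlap between 2.38 and 5.69 CPM.

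The mean of Nmrk2 was 58.2 ± 14.6 CPM in controls (SD, n = 5) and 149 ± 33.3 after TM. The fitted log2 fold between them was 1.35 ± 0.23 (SE), with a 95% interval of 0.87 to 1.84, and no test is read from it because the gene was picked in this comparison. Without TM 1, the TM library with Snap25 at the control level, the log2 fold was 1.43, and TM 1 itself had more Nmrk2 than any control. In bulk tissue, fewer cells of a type and less RNA per cell cannot be told apart. The mean was 57.9 ± 25.8 CPM after NAC and 79.9 ± 10.3 after TM+NAC. The log2 fold of NAC against control was -0.01 ± 0.23, or -0.28 without NAC 3, and that of TM+NAC against control was 0.46 ± 0.23. Both share the controls that the choice of the gene used. TM+NAC against TM gave a log2 fold of -0.90 ± 0.23, with a 95% interval of -1.38 to -0.41, and the libraries of the groups did not overlap. That comparison shares the TM libraries in which the gene was picked, and is also a description. The difference between the TM fold with NAC and the TM fold without it was -0.89 ± 0.33 on the log2 scale, and it contains the picked comparison.

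The comparison of TM+NAC with NAC shares no library with the one in which Nmrk2 was picked, and asks how TM changed the gene in muscle that also received NAC. Its log2 fold was 0.46 ± 0.23, with a 95% interval of -0.02 to 0.95, and it did not pass (adjusted p = 0.410, edgeR's quasi-likelihood test with Benjamini-Hochberg adjustment). The SE, interval and adjusted p come from the fit of all 20 libraries, so TM and control libraries entered their estimate of the spread. An exact two-sided permutation test of the mean log2 CPM gave a difference of 0.56 with p = 0.127, where the smallest p that 5 against 5 libraries allow is 0.00794. All 5 TM+NAC libraries lay above 3 of the NAC libraries, TM+NAC 1 lay below NAC 5, and NAC 3 lay above them all. Without NAC 3 the log2 fold was 0.73 (adjusted p = 0.352), without NAC 4 it was 0.36 (adjusted p = 0.901). It passed under none of the alternatives that gave an adjusted p, which ran from 0.329 to 0.901.

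Nmrk1, the general nicotinamide riboside kinase, had a mean of 0.776 FPKM over all libraries, under the filter, and was not tested. It stood at 2.38, 3.38, 4.74, 5.69 and 3.89 CPM in controls and at 4.39, 3.58, 2.96, 2.81 and 3.51 CPM after TM. It ran from 2.38 to 3.79 CPM after NAC and from 2.73 to 3.27 CPM after TM+NAC. All groups overlapped, on 135 to 314 counts a library. Per length, Nmrk2 was 16.2 to 60.7 times as abundant as Nmrk1 in the control libraries (median 34.1), 52.8 to 121 times in TM (median 95.3), 23.4 to 73.4 times in NAC (median 34.1) and 45.3 to 61.5 times in TM+NAC (median 52.9). The lowest TM ratio lay below the highest control and NAC ratios, so the groups overlapped on this scale.

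Ordered by FPKM, the controls began with Nampt at 26.1 ± 4.38 FPKM and Nmrk2 at 25.5 ± 6.52, which overlapped in range. Nnt, with the FPKM of both its entries added, followed at 13.4 ± 2.79, then Nadk2 at 5.93 ± 0.535 and Nmnat1 at 4.12 ± 0.564. Each of these 3 lay apart from its neighbours in every control library. Nmnat3 at 2.63 ± 0.275, Sirt3 at 2.15 ± 0.254, Sirt1 at 1.72 ± 0.287, Naprt at 1.30 ± 0.328 and Nmrk1 at 0.877 ± 0.271 followed, and each overlapped the next in range. The Nnt sum depends on how counts were divided between its entries. In TM 2, 77.8 CPM in an entry made 9.25 FPKM, and 67.1 CPM in the other made 16.8 FPKM. After TM the order was the same except at its head, where Nmrk2 came first at 68.3 ± 14.8 FPKM and Nampt second at 28.1 ± 3.80, with no overlap. Nampt was again first after NAC (30.1 ± 5.55 FPKM), and after TM+NAC Nmrk2 was first at 38.1 ± 5.28 against 29.2 ± 1.37 for Nampt, again with no overlap. Among the 9696 tested entries, Nmrk2 ranked 1008 by mean FPKM in controls, 424 after TM, 982 after NAC and 739 after TM+NAC.

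Of the tested genes, 0 of 9 passed in TM against control, a comparison in which 0% of all 9696 entries passed (327 at an unadjusted p under 0.05 with edgeR, and 19 called by DESeq2); with DESeq2, Nmrk2 was the member called, and nothing is read from that. Likewise 0 of 9 passed in NAC against control, where 0.217% of all entries passed, and 0 of 9 in TM+NAC against control, where 0.351% did. In TM+NAC against TM and in TM+NAC against NAC 0 of 9 passed, beside 0.0309% of all entries in each. For the difference between the TM folds with and without NAC, 0 of 9 passed beside 0.0103%. The comparisons with controls share those 5 libraries and are not independent of each other.

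**Figure D2:**
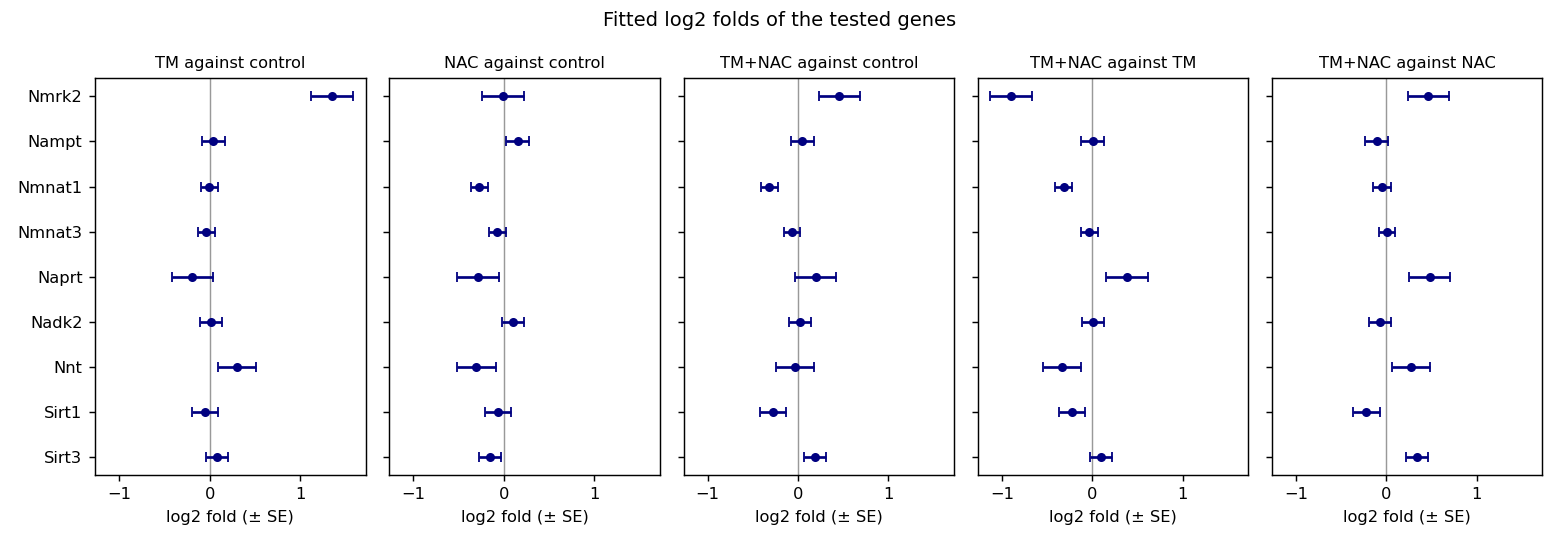
Fitted log2 folds of the 9 tested genes (points) with their standard errors (bars) in each of 5 comparisons, 5 libraries against 5, with the counts of both Nnt entries added together. Nmrk2 lies at 1.35 in TM against control and -0.90 in TM+NAC against TM, and no point of another gene lies beyond 0.48 on either side of 0.

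A further reading of the same libraries asks which genes did not overlap between groups in CPM. In TM against control, where 0.443% of tested entries did not overlap, Nmrk2 alone of these genes was set apart, by choice. In NAC against control it was Nmnat1, lower, beside 0.598% of entries, but in FPKM its groups overlapped. In TM+NAC against control none of these genes stood apart in CPM, beside 2.2% of entries, while in FPKM Nmrk2 and Sirt3 were higher without overlap. In TM+NAC against TM it was Nmrk2, lower, beside 1.8%, and in TM+NAC against NAC it was Sirt3, higher, beside 2.63%, and these 2 also stood apart in FPKM. All shares given are for CPM. No share over all entries was computed in FPKM, so nothing is read from the genes that stood apart there.

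Nampt, the rate-limiting salvage enzyme, was at 162 ± 25.5 CPM in controls, 167 ± 21.6 after TM, 180.2 ± 38.5 after NAC and 167 ± 9.27 after TM+NAC. The NAC mean was raised by NAC 4 at 240.5 CPM, and was 165 ± 21.5 without it. The log2 folds were 0.04 ± 0.13 for TM against control, 0.15 ± 0.13 for NAC against control (0.03 without NAC 4) and -0.11 ± 0.13 for TM+NAC against NAC (0.02 without NAC 4). The 95% interval of the first ran from -0.22 to 0.31, and the groups overlapped in every comparison.

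Nmnat1, the nuclear enzyme of the last step to NAD, had lower values in the groups that received NAC, by less than the test could call. It stood at 14.1, 16.8, 13.3, 18.0 and 14.9 CPM in controls and at 16.5, 16.9, 13.8, 13.6 and 16.1 CPM after TM. After NAC it stood at 12.4, 13.2, 12.5, 13.2 and 12.6 CPM, each below the lowest control in CPM, whereas in FPKM 2 of 5 lay below it. After TM+NAC it stood at 14.7, 12.3, 11.4, 11.1 and 12.3 CPM, with 4 of 5 libraries below every control and every TM library in CPM, and in FPKM 3 of 5 below every control and 4 below every TM library. The log2 fold was -0.00 ± 0.09 for TM against control. It was -0.27 ± 0.10 for NAC against control (adjusted p = 0.587), -0.32 ± 0.10 for TM+NAC against control (adjusted p = 0.269) and -0.32 ± 0.10 for TM+NAC against TM (adjusted p = 0.599), none passing with edgeR's quasi-likelihood test. The first 2 share the controls. NAC 4, in which Snap25 lay below every control, had 13.2 CPM of Nmnat1 and so lay with the other NAC libraries. Without NAC 4 the NAC fold was -0.28. With limma on log2(FPKM + 1) the NAC and TM+NAC folds against control were each -0.16, and with log2(FPKM + 0.1) each -0.19. These scales differ from the fitted one in the unit as well as in the added value.

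Nmnat3, the mitochondrial enzyme of the same step, differed least. It ran from 13.7 to 17.1 CPM in controls, 14.5 to 18.3 after TM, 14.1 to 17.3 after NAC and 13.4 to 17.6 after TM+NAC. Its 5 log2 folds between pairs of groups lay between -0.07 and 0.0049, each with an SE of 0.09. Nmnat2, the enzyme of the axon and a member of the wider salvage list, was under the filter at 0.0247 ± 0.0323 FPKM in controls, 0.0837 ± 0.0397 after TM, 0.139 ± 0.0650 after NAC and 0.143 ± 0.0295 after TM+NAC. Its mean was higher in the groups in which most libraries had more Snap25, and the part of neuronal transcripts in it was not tested.

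Naprt, which starts NAD synthesis from nicotinic acid, was low in every group. It was at 3.78 ± 0.855 CPM in controls, 3.31 ± 0.443 after TM, 3.10 ± 1.27 after NAC and 4.32 ± 0.535 after TM+NAC, on 108 to 321 counts a library. The lowest library was NAC 4 at 1.38 CPM, and NAC 5 at 4.96 CPM lay above 4 of the TM+NAC libraries. TM+NAC against NAC gave a log2 fold of 0.48 ± 0.23 (adjusted p = 0.410 with edgeR's quasi-likelihood test, not passing), or 0.29 without NAC 4.

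**Figure D3:**
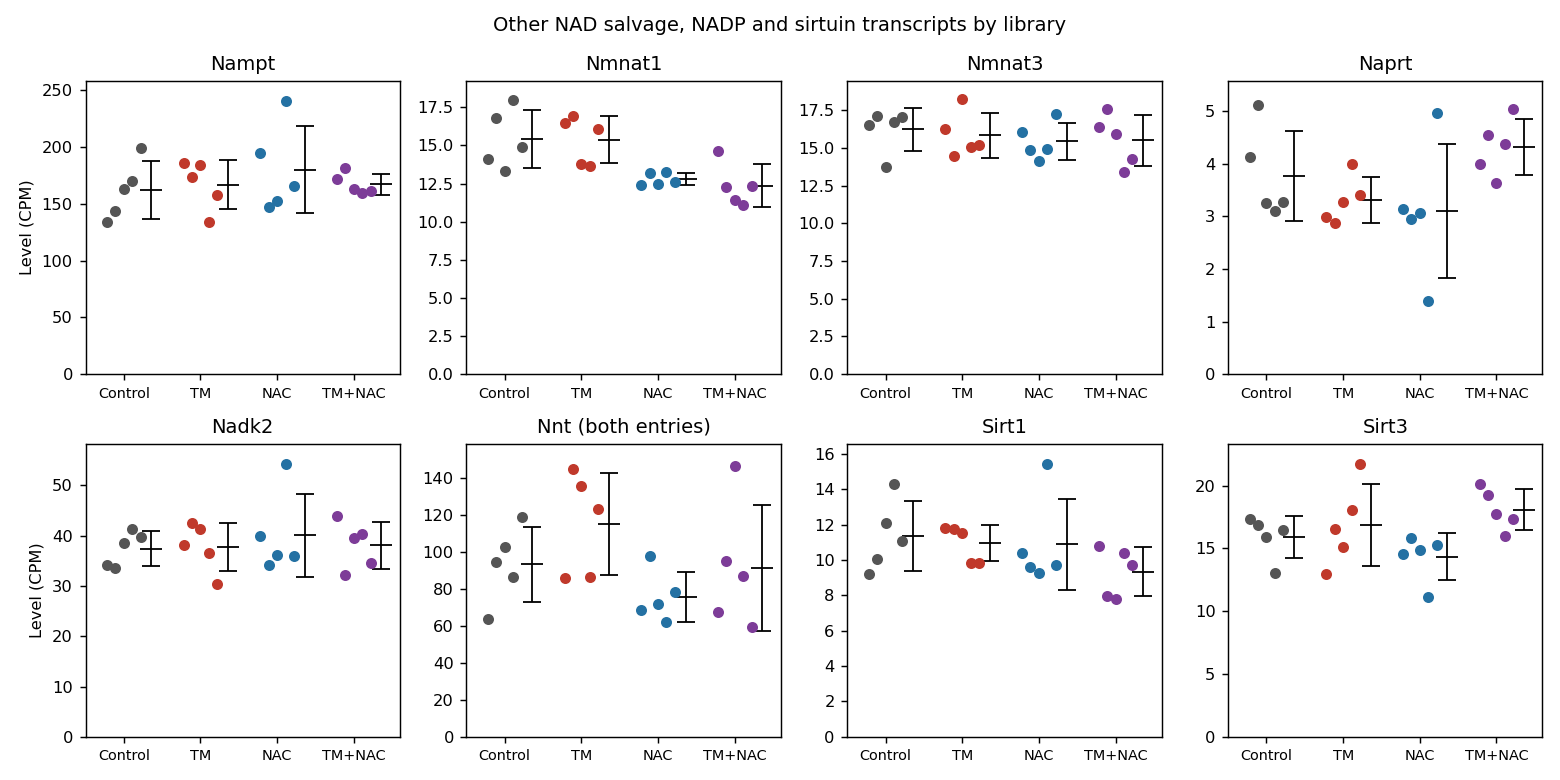
Levels in CPM of the other 8 genes in each library, with the group mean ± SD (n = 5) drawn beside the points and every axis starting at 0. The NAC points of Nmnat1 form a narrow band from 12.4 to 13.2 CPM below the controls, and a single NAC library stands apart for Nadk2 at 54.3 CPM and Sirt1 at 15.4 CPM.

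Nadk2, the mitochondrial NAD kinase that makes NADP, was at 37.4 ± 3.43 CPM in controls, 37.8 ± 4.78 after TM, 40.1 ± 8.21 after NAC and 38.1 ± 4.70 after TM+NAC. NAC 4 stood at 54.3 CPM, and without it the NAC mean was 36.5 ± 2.36. The log2 folds lay between -0.07 and 0.10 with an SE of 0.12, and the groups overlapped throughout. Without NAC 4 the fold was -0.03 for NAC against control and 0.06 for TM+NAC against NAC.

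Nnt, the inner-membrane transhydrogenase that turns NADH into NADPH in mitochondria, has 2 entries in the table, ENSMUSG00000025453 (chr13:119335448-119408997) and ENSMUSG00000116207 (chr13:119335528-119408952), both on the minus strand. In the GENCODE M21 annotation all 3339 exonic bases of the second, in 17 exons, are also exonic in the first, so reads from the gene cannot be told apart by entry. The second entry was at 0 counts in 7 libraries, and in the other 13 it took 18.1 to 93.7% of the Nnt counts. In TM+NAC 2 the first entry held 5.98 CPM and the second 89.4, and in TM+NAC 3 they held 147 and 0. Neither entry alone is therefore read as a level of Nnt. As background, C57BL/6N carries an intact Nnt, while the C57BL/6J genome on which GRCm38 is built lacks part of the gene, so reads from the exons missing there have no place in this alignment.

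**Figure D4:**
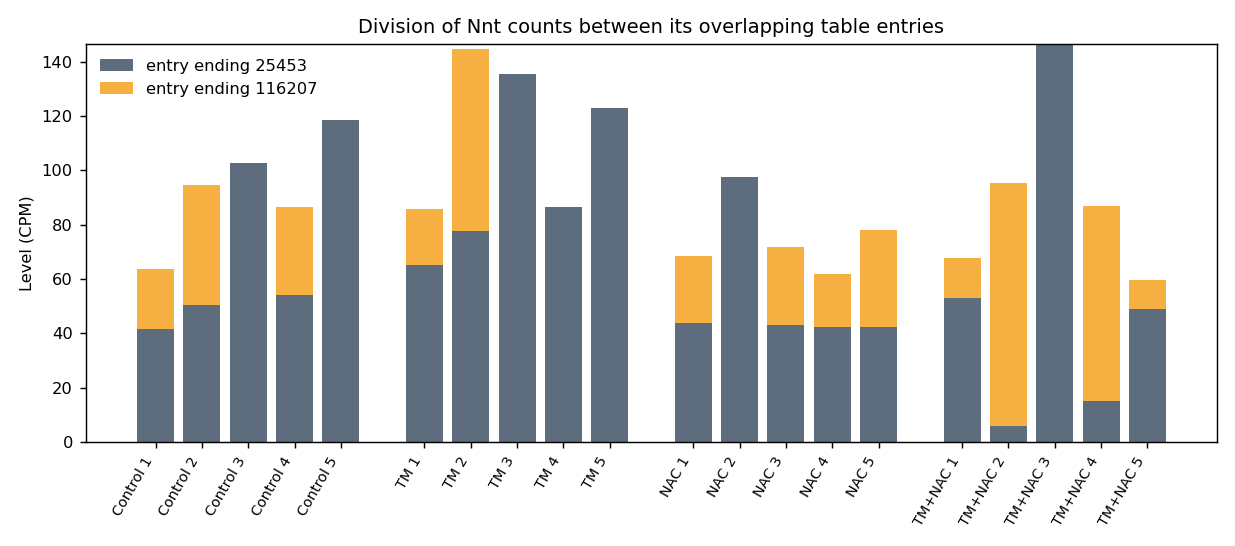
Nnt level in CPM in each library, as bars from 0 divided into the counts assigned to entry ENSMUSG00000025453 (grey) and to entry ENSMUSG00000116207 (orange). The total runs from 59.6 to 147 CPM, and the orange part is absent in 7 libraries and takes up to 93.7% in another.

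With both entries added, Nnt stood at 63.9, 94.8, 103, 86.5 and 119 CPM in controls and at 85.8, 145, 136, 86.7 and 123 CPM after TM. It ran from 61.9 to 97.7 CPM after NAC and from 59.6 to 147 after TM+NAC. The groups overlapped, and TM+NAC held both the lowest and the highest library. The log2 fold of the sum was 0.30 ± 0.21 for TM against control (adjusted p = 0.999), -0.30 ± 0.21 for NAC against control (adjusted p = 0.661), -0.34 ± 0.21 for TM+NAC against TM (adjusted p = 0.939) and 0.27 ± 0.21 for TM+NAC against NAC (adjusted p = 0.532), none passing with edgeR's quasi-likelihood test.

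Sirt1, the nuclear NAD-dependent deacetylase, was at 11.3 ± 1.97 CPM in controls, 10.9 ± 1.03 after TM, 10.9 ± 2.57 after NAC and 9.34 ± 1.37 after TM+NAC. NAC 4 held the highest value, 15.4 CPM, and without it the NAC mean was 9.74 ± 0.488. The log2 fold of TM+NAC against control was -0.28 ± 0.14 (adjusted p = 0.833 with edgeR's quasi-likelihood test), and the groups overlapped. Without NAC 4 the fold was -0.21 for NAC against control and -0.06 for TM+NAC against NAC.

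Sirt3, the main deacetylase of mitochondria, was the member with the smallest unadjusted p in TM+NAC against NAC. It stood at 14.5, 15.9, 14.9, 11.1 and 15.2 CPM after NAC and at 20.1, 19.3, 17.8, 16.0 and 17.3 CPM after TM+NAC, so the groups did not overlap, by a gap of 15.9 to 16.0 CPM. The log2 fold was 0.34 ± 0.12 (adjusted p = 0.409 with edgeR's quasi-likelihood test, not passing), and 0.26 without NAC 4 (adjusted p = 0.901), the lowest library. Controls, at 13.0 to 17.3 CPM, and TM libraries, at 12.9 to 21.7 CPM, overlapped both groups in CPM.

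The reads of Nmrk2 can be shared with another gene. Atcayos, on the opposite strand, overlaps the last exon of Nmrk2 and shares 270 of its 1854 exonic bases, which is 14.6%, in GENCODE M21. The kit marked strand, but whether counting used it is not given in the sources used here. Atcayos was at 97.1 to 125 CPM in controls, 62.6 to 103 after TM, 92.7 to 129 after NAC and 79.8 to 122 after TM+NAC. Its log2 fold was -0.39 ± 0.13 for TM against control, in the direction opposite to that of Nmrk2, and 0.23 ± 0.13 for TM+NAC against TM. Atcay, whose 3′ end lies 2457 bases before the start of Nmrk2 on the same strand, was at 8.10 to 19.6 CPM in controls and 3.74 to 8.27 after TM, and Dapk3, 4973 bases beyond the end of Nmrk2, was at 13.3 to 16.7 and 9.37 to 15.5. Exons of Atcayos also overlap exons of Atcay, so the Atcay counts may hold Atcayos reads as well. These 3 neighbours were named after their values were seen.

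**Figure D5:**
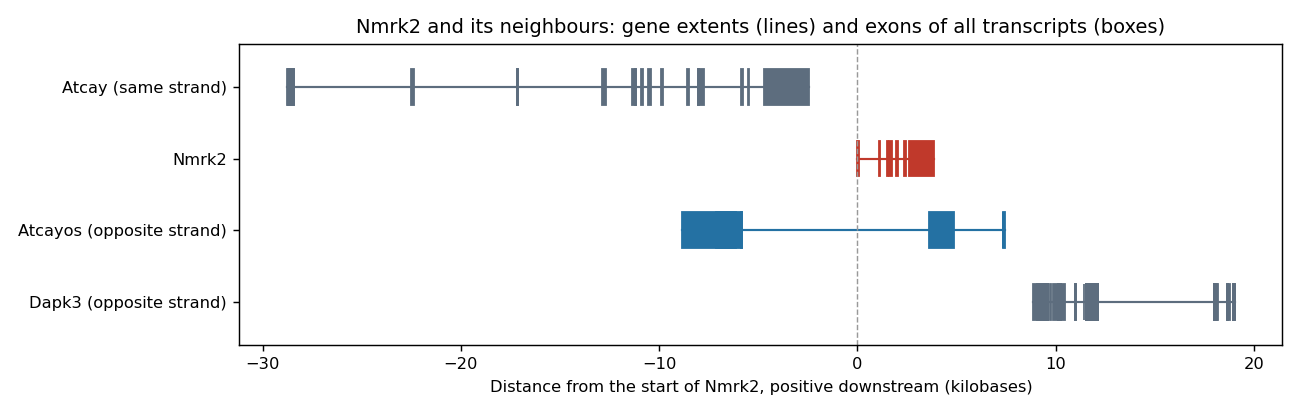
Map of Nmrk2 and its neighbours by distance from the start of Nmrk2 in kilobases, with positive values downstream, gene extents as lines and the exons of all GENCODE M21 transcripts as boxes. An exon of Atcayos, on the opposite strand, covers the last 270 bases of Nmrk2, and no exon of Atcay or Dapk3 reaches it.

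No gene of the lists around the salvage route passed the test. Over all tested entries the median log2 fold lay between -0.0059 and 0.0021 in every comparison. Of 7 other genes of salvage and NAD entry, 3 were tested and 0 passed in any comparison: Slc25a51, the mitochondrial NAD carrier, had a log2 fold of 0.06 ± 0.06 for TM against control, Pnp, which splits nicotinamide riboside into nicotinamide, had -0.21 ± 0.19, and Slc29a1, a nucleoside carrier, had group means of 4.72 to 5.65 FPKM. Of 9 enzymes of the tryptophan route, 0 passed the filter, and the highest mean was that of Afmid at 0.451 FPKM. Of 13 genes of NADP formation and NADPH supply, 9 were tested and 0 passed, with a median log2 fold of -0.07 for TM against control and 0.05 for TM+NAC against NAC. Me1, cytosolic malic enzyme, had -0.22 ± 0.08 in the latter (adjusted p = 0.409 with edgeR's quasi-likelihood test), or -0.14 without NAC 4. Of 3 genes of nicotinamide disposal, Aox1 alone was tested, at 0.05 ± 0.10 for TM against control, and Nnmt was under the filter at 0.772 FPKM.

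Among 16 other NAD consumers, 11 were tested and 0 passed in any comparison. Parp3, a polymerase of DNA repair, was at 0.18 ± 0.06 for TM against control (adjusted p = 0.999 with edgeR's quasi-likelihood test), and the tankyrases Tnks2 and Tnks were at -0.27 ± 0.10 and -0.29 ± 0.12 for TM+NAC against NAC (adjusted p = 0.409 for each with the same test), or -0.16 and -0.17 without NAC 4. The most abundant consumer was Art1, a muscle ADP-ribosyltransferase, at 73.5 FPKM. Among 11 genes of the NADH shuttles and lactate dehydrogenase, 10 were tested and 0 passed. Of these, 8 had positive folds for TM against control with a median of 0.0046, and 9 had negative folds for NAC against control with a median of -0.16, or 8 with a median of -0.09 without NAC 4. Got2, mitochondrial aspartate aminotransferase, was at 0.18 ± 0.07 and Gpd2, the mitochondrial glycerol phosphate dehydrogenase, at -0.26 ± 0.09 for TM+NAC against NAC (adjusted p = 0.409 for each with edgeR's quasi-likelihood test), or 0.16 and -0.18 without NAC 4.

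Because Nmrk2 is known to respond to energy stress, to bind integrin and to vary with muscle damage, genes of those settings were listed as well. Of 13 energy-sensing and PPAR regulators 12 were tested, of 11 integrin and laminin genes 11 were tested, and of 17 denervation and regeneration genes 11 were tested, and 0 passed in any comparison. For TM against control their median log2 folds were -0.01, 0.04 and -0.10. Ppargc1a, a coactivator of mitochondrial genes, was at 3.83 ± 0.339 FPKM in controls and 4.27 ± 0.975 after TM, and Itga7, the integrin subunit that pairs with the β1 chain in muscle, at 7.88 ± 0.350 and 8.28 ± 0.807. Mybph, a myosin-binding protein, had the smallest p of these lists for TM against control, at -1.07 ± 0.27 (adjusted p = 0.468 with edgeR's quasi-likelihood test), and was at 73.4 ± 19.6 FPKM in controls and 36.4 ± 14.9 after TM. It was about as low in the other treated groups, at 41.3 ± 16.4 FPKM after NAC and 38.2 ± 9.14 after TM+NAC, with log2 folds of -0.90 ± 0.27 and -1.06 ± 0.27 against control that also did not pass. The slow-fibre markers, which could shift with fibre type, summed to 1364 to 2546 CPM in controls, 587 to 2038 after TM, 769 to 1752 after NAC and 831 to 1790 after TM+NAC. All 9 had negative folds in each treated group against control, with medians of -0.39, -0.43 and -0.71, and 0 passed, and their part in the level of Nmrk2 was not tested.

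The genes with a pattern most like that of Nmrk2 were sought over the 20 libraries after the mean of each group was taken off the log2 CPM, so that the treatments did not set the likeness. The highest Pearson correlations were those of Ubtd2 at 0.82, Setd1a at 0.73, Letm1 at 0.73, Clptm1l at 0.72 and Kremen1 at 0.70. The lowest were those of Slc25a27 at -0.77, Rpap3 at -0.73, Lvrn at -0.71, Elp2 at -0.69 and Clk4 at -0.67. They are extremes among 9696 entries, of which the 1st and 99th percentiles were -0.53 and 0.51, and the libraries share depth and tissue makeup. The other tested genes of NAD metabolism lay between -0.40 (Sirt1) and 0.35 (Naprt), inside those percentiles. Without taking off the group means the highest were Evi5l at 0.76, Rab11fip3 at 0.72, Clu at 0.71, Cuedc1 at 0.71 and Mgrn1 at 0.69, and the fold of Evi5l for TM against control was 0.21 ± 0.07 beside 1.35 for Nmrk2. None of these 15 genes is a member of the lists above.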

How the data were processed

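RNA selected with oligo(dT) from gastrocnemius was sequenced in 20 libraries with a kit that marks strand (dUTP), per the labels' protocols. A whole-number count and an FPKM value per library for 31618 genes stand in a single table that the authors deposited, per the file headers. The deposited counts are not normalized, and the deposited FPKM values are corrected for gene length and library depth. The submitters' processing notes name cutadapt 1.9, FastQC, HISAT2 2.2.1 and StringTie, with GRCm38. The counting tool, its use of strand and the annotation release were not given in the sources used here.

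Genes were kept where the mean FPKM reached 1 (9696 genes). After TMM scaling, all 4 groups entered 1 quasi-likelihood fit with edgeR 4.0.16 in R 4.3.3. Tests were two-sided, and a gene passed below 0.05 after Benjamini-Hochberg adjustment across the tested genes. CPM are counts over the TMM-scaled library size. Standard errors follow from the fold and its F statistic. Alternatives used DESeq2 1.42.0, limma 3.58.1 on log2(FPKM + 1) or log2(FPKM + 0.1), another scaling, other filters, only the groups compared, the replicate number as a block, and fits without single libraries. The fit was tested on simulated data. Library totals ran from 54.7 to 90.7 M counts. Libraries of a group all differed by more than sampling noise (chi-square over degrees of freedom at least 22.9). The labels name no batch.

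The genes, lists and tests were chosen with earlier results of these data known. Beside the 10 genes, the text names up to 2 genes of each list by smallest p in a comparison, genes that describe a list's level, and the 5 most and 5 least like Nmrk2 by correlation, leaving out predicted genes, clones and pseudogenes. The endothelial, macrophage, Schwann, adipocyte, fibroblast and blood lists summed to 237 to 320, 15.7 to 30.4, 81.0 to 460, 204 to 485, 303 to 875 and 120 to 272 CPM, and the groups overlapped in each. Intervals and counts cover these libraries only.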

Additional observations from a re-analysis of the deposited data

Results flagged for a closer look

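Within each group of 5 libraries, the highest and lowest library were compared with the rest by Dixon's ratio of the gap to the range, for each gene entry. Of 48 groups examined 5 exceeded the 95% limit, where chance gives about 1 in 20. NAC 4 accounted for 3 of them: Nadk2 was at 54.3 CPM there and at 34.2 to 39.8 in the other NAC libraries, Sirt1 at 15.4 CPM against 9.24 to 10.4, and Sirt3 at 11.1 CPM against 14.5 to 15.9. NAC 4 was the deepest library at 90.7 M counts, had 20.3% of its counts in mitochondrial transcripts and had Snap25 at 0.22 CPM. Nmnat3 in control 3 was at 13.7 CPM, and at 16.5 to 17.1 in the other controls. The Nnt entry ENSMUSG00000025453 was at 97.7 CPM in NAC 2 and at 42.2 to 43.8 in the other NAC libraries, and NAC 2 was the NAC library in which the overlapping entry ENSMUSG00000116207 was at 0.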

How the results depend on the processing

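For TM against control, 0 of these genes passed in the fit described above. With no filter, with a mean FPKM of at least 5, with DESeq2 or with only the groups compared, 1 passed, Nmrk2. It also passed without TM 1 and NAC 4, the 2 treated libraries in which the neuron list without Camk2a lay in the control range. The gene was picked on these TM libraries, so its passes in TM against control and in TM+NAC against TM are no evidence of their own. Leaving out each library gave 0 to 1, with 1 (Nmrk2) without TM 1, NAC 3 or NAC 4. For TM+NAC against TM, 1 (Nmrk2, adjusted p = 0.0488) passed with only the groups compared and 0 under each other alternative run. With only the groups compared, 9 entries in all passed for TM+NAC against TM, beside 3 in the fit described above. The log2 fold of Nmrk2 for TM+NAC against NAC ran from 0.34 to 0.73 over fits without single libraries, the highest without NAC 3. Of 1749 recomputed folds of single genes, 33 moved by more than 1 SE or changed their call and 0 called folds reversed. That 0 says little, because none of these genes passed in the fit described above. Folds that did not pass could change sign. That of Sirt1 for TM against control ran from -0.11 to 0.05 over fits without single libraries. Counts over all genes moved more. For TM against control 0 became 197 with no filter, 19 with DESeq2 and 2 with a mean FPKM of at least 5. It was also 2 with only the groups compared. The count was 1 without NAC 3, 22 without NAC 4, 12 without TM 1 and 30 without TM 1 and NAC 4. For NAC against control 21 became 439 with no filter, 38 with DESeq2, 45 without TM 1 and NAC 4, 2 and 3 with limma, and 0 with a mean FPKM of at least 5 or with only the groups compared. Without single libraries it ran from 4 (without control 1) to 41 (without NAC 4). For TM+NAC against control 34 became 566 with no filter, 77 with DESeq2, 57 with only the groups compared, 64 without TM 1 and NAC 4, and 0 with a mean FPKM of at least 5. It was 21 without control 1, control 2 or TM+NAC 5, 22 without control 4 and 57 without NAC 4. With a mean FPKM of at least 5, TM+NAC against TM and against NAC gave 0 in place of 3 each. Same-numbered libraries deviated with correlations of -0.27 to 0.38. Differently numbered libraries were not set beside them, so these values cannot show whether the numbers pair the libraries. With the replicate block 0 of these genes passed in each comparison, with 10 entries in all passing for NAC against control. Fits with both Nnt entries added were chosen after seeing the data and gave 0 in each comparison. Nmrk1 and the tryptophan genes lie under the filter, and at their depth small changes are not detectable.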

Other observations

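Atcay, the upstream neighbour of Nmrk2, had lower values after TM in these libraries: its log2 fold was -1.02 ± 0.24 for TM against control, -0.67 ± 0.24 for NAC against control and -0.60 ± 0.24 for TM+NAC against control, and none passed (adjusted p = 0.288, 0.587 and 0.587, edgeR's quasi-likelihood test). These comparisons share the controls, and the gene was chosen after its values were seen. Exons of Atcayos, on the opposite strand and at a higher level, overlap exons of Atcay. The part of Atcayos reads in the Atcay counts was not tested. Afmid, of the tryptophan route, was under the filter at 0.708 ± 0.283 FPKM after TM and 0.358 ± 0.0650 in controls (SD, n = 5), 0.342 ± 0.132 after NAC and 0.396 ± 0.0652 after TM+NAC.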
